A study of Mus musculus with 24 samples.

Results

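The combined action of 2 agents was examined in mouse pancreatic ductal adenocarcinoma (PDAC): for every gene, the difference that BMS754807 made in the presence of hydroxychloroquine was set against the difference it made without it. RNA from 24 tumours was measured on Clariom S arrays in 4 groups of 6. The control group received vector, another group received BMS754807, another hydroxychloroquine, and the combination group received both agents. The interaction is the combination minus hydroxychloroquine, less BMS754807 minus control, on the log2 scale. It uses all 24 tumours of the series and was computed for all 19505 genes with a named probe set. Mouse strain, tumour model and site, age, doses and treatment times were not given in the sources used here. Whether each tumour is from its own animal is not stated in the labels, and errors and p values therefore measure only the spread between these samples, which may be technical.

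BMS754807 is a small molecule that inhibits IGF1R and INSR, the receptor kinases for insulin-like growth factors and for insulin, which signal through substrate proteins to PI3K, AKT and mTOR and restrain the FOXO transcription factors. Hydroxychloroquine accumulates in lysosomes, raises their pH and blocks the digestion of autophagosomes, the vesicles in which cells recycle their own components. Loss of growth factor signalling is a known trigger of autophagy, and the 4 groups allow the question whether transcripts responded to both agents together as the sum of the single responses. An interaction of 0 means that the log2 differences added up. A value above 0 means that the combination lay above that sum, and a value below 0 that it lay below.

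No gene showed an interaction that passed the threshold: 0 of 19505 genes (0%) had an adjusted p under 0.05 in limma, and the smallest adjusted p was 0.817, shared by 33 genes. Robust regression in place of least squares, on the same arrays, gave 43 genes, 10 of them among the 24 described below. At an unadjusted p under 0.05 there were 985 genes, where 975 would fall by chance on average if no gene interacted and the p values were uniform. Of these, 534 genes (2.74%) had an interaction above 0 and 451 (2.31%) below 0. The median interaction over all genes was 0.0067 log2, the median size without sign was 0.18, and 50.8% of genes lay above 0. A typical interaction carried an SE of 0.26 (quartiles 0.20 and 0.34), since it sums the errors of 4 group means, and the number of arrays limits this precision. Among the 9753 genes at or above the median mean signal, 478 had an unadjusted p under 0.05, 350 of them above 0 and 128 below. The median interaction of these 9753 genes was 0.043 log2. An interaction larger than 1 log2 unit in size was measured for 289 genes, and 125 of those had an unadjusted p under 0.05.

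The effect of BMS754807 without hydroxychloroquine and its effect with hydroxychloroquine come from separate tumours and can be set side by side. Across genes, which are not independent replicates, their correlation was r = -0.02, and 50.2% of genes had the same sign in both. For hydroxychloroquine, the effects without and with BMS754807 had r = 0.11, with the same sign in 53.4% of genes. The 4 effects had like spreads over genes, with SDs of 0.24 for BMS754807 alone, 0.25 for BMS754807 with hydroxychloroquine, 0.24 for hydroxychloroquine alone and 0.28 for hydroxychloroquine with BMS754807. At an unadjusted limma p under 0.05 were 1146 genes for BMS754807 alone and 1052 with hydroxychloroquine. For hydroxychloroquine it was 939 genes alone and 1679 with BMS754807, where 975 would fall by chance on average. The BMS754807 counts lie little above 975, so an r near 0 cannot show whether hydroxychloroquine changed its effect.

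**Figure D1:**
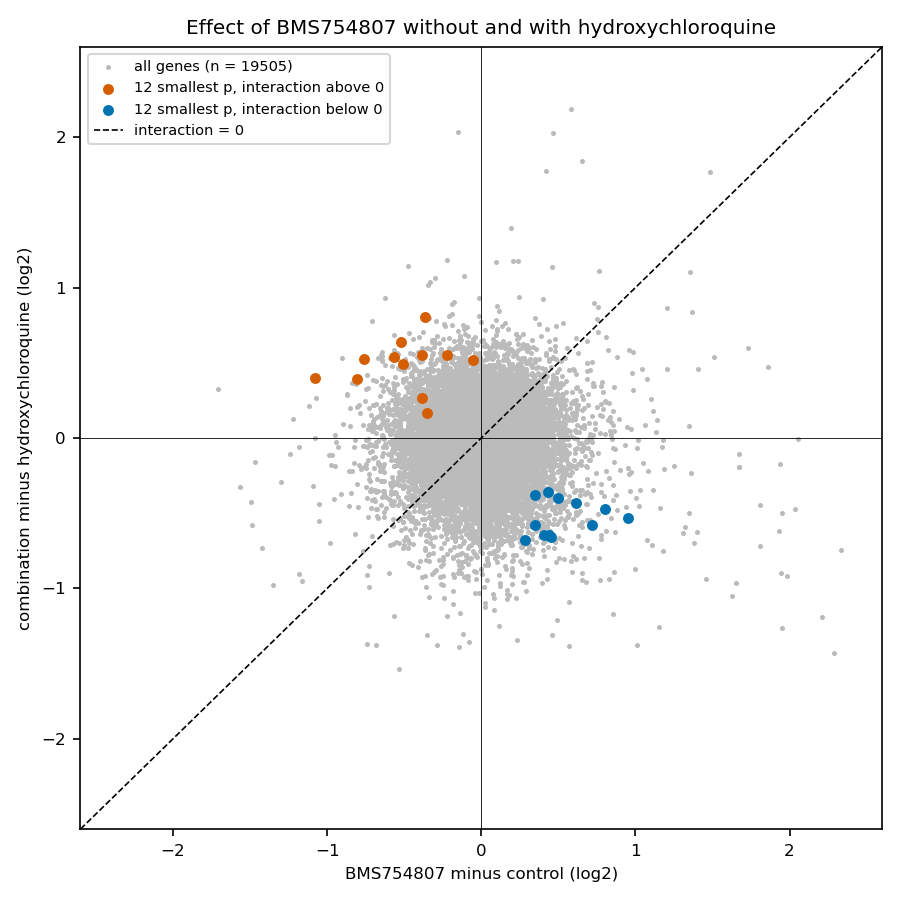
Each point is 1 of 19505 genes, with BMS754807 minus control on the horizontal axis and combination minus hydroxychloroquine on the vertical axis, both in log2 units. The dashed line marks an interaction of 0. The cloud is centred on 0 with no slope (r = -0.02), and the 12 genes of smallest p on each side lie in the upper left (interaction above 0) and lower right (below 0).

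The tumours carried a ductal epithelial profile in every group. The simple-epithelium keratins were high in all 24, with Krt19 between 15.15 and 15.94 log2 and Krt8 between 15.97 and 16.65, the ductal transcription factor Sox9 lay between 14.65 and 15.58 and the adhesion molecule Epcam between 10.68 and 14.92. The ductal tight junction gene Cldn4 varied more, from 4.33 to 10.21. The exocrine enzyme Cpa1 lay between 3.85 and 5.37, Cela1 between 6.65 and 8.63 and insulin (Ins2) between 2.72 and 4.48. Several tumours stood apart in markers of other tissues. To describe this, each gene was centred on its mean over the 24 tumours and the centred values of a list were averaged per tumour, which gives a list score. The skeletal muscle score was high in hydroxychloroquine tumour 5 (6.47), combination tumour 1 (5.11), BMS754807 tumour 2 (4.08), control tumour 5 (3.70) and BMS754807 tumour 6 (2.74), and 0.65 or less elsewhere. The adipocyte score reached 4.07 in BMS754807 tumour 6 and 2.12 in hydroxychloroquine tumour 1, and the tumours with high B and plasma cell scores were hydroxychloroquine 1 (3.16), BMS754807 5 (1.97) and combination 4 (1.56). In tissue, fewer cells of a type and less RNA per cell cannot be told apart.

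The 12 genes with the smallest p above 0 shared one shape: both single-agent means lay below both the control and the combination mean. Since small p chose them, this describes the genes and is no further evidence. In none of them did the 12 single-agent tumours separate from the 12 control and combination tumours, and this was so for 0 of 19505 genes (0%). For some genes named below, all values of a group lay above or below all values of another group. The share of all 19505 genes that separate in the same pair of groups is not given here. Without that share, such separations are not set against a background here, so they describe the genes and are no further evidence. Of the 24 genes named on both sides, 16 lay below the median signal of all genes and 7 below the lower quartile, 3.62 log2, where array signal is weak. These 7 were Defb6, Kcnk12, Pnma3, Mzf1, Gprin1, Hyal5 and Dlgap1.

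Casp4, the protease that senses bacterial lipopolysaccharide in the cytosol and triggers the non-canonical inflammasome, had an interaction of 1.00 ± 0.24 log2 (SE, 6 tumours per group). Its lowest, median and highest values were 8.60, 8.97 and 9.26 in control, 8.14, 8.43 and 9.04 with BMS754807, 7.99, 8.69 and 9.06 with hydroxychloroquine, and 8.69, 9.09 and 9.41 in the combination. The combination tumours were level with control, both single-agent groups were lower, and all ranges overlapped. The unadjusted limma p was 0.000365 and the adjusted p 0.817.

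Tifa, an adaptor that carries the signal of bacterial sugar metabolites to NF-kappaB, had the largest interaction of the 12, 1.48 ± 0.40. BMS754807 tumours had a lowest, median and highest value of 10.12, 10.57 and 11.61, against 11.45, 11.78 and 12.51 in control. With hydroxychloroquine these were 11.30, 11.82 and 12.29, and in the combination 11.32, 12.43 and 12.83. Of the single agents it was BMS754807 whose mean lay away from control (-1.08 ± 0.28), and the combination mean was 0.40 above hydroxychloroquine, with overlap between all groups. Defb6, a beta-defensin, reached 1.29 ± 0.30, at signals of 2.22 to 4.26 in all 24 tumours.

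Coq9, a lipid-binding protein of coenzyme Q synthesis, had an interaction of 0.65 ± 0.16. Its 6 combination values (8.70 to 8.98, median 8.81) all lay above its 6 BMS754807 values (8.08 to 8.50, median 8.41). Control ran from 8.45 to 8.91 (median 8.72) and hydroxychloroquine from 8.15 to 8.85 (median 8.57), so each of these overlapped the combination. Spidr, a scaffold of DNA repair by homologous recombination, reached 0.57 ± 0.15. Its combination values, 9.87 to 10.26 with a mean of 10.03, lay above all 6 hydroxychloroquine values, 9.25 to 9.62 with a median of 9.56. Control (9.41 to 10.05, median 9.76) and BMS754807 (9.48 to 9.88, median 9.71) overlapped both of them.

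Morn4 (1.10 ± 0.28) and Mocos (0.78 ± 0.21), the sulfurase of the molybdenum cofactor, likewise had combination values above every hydroxychloroquine value. The zinc finger genes Zfp939 (1.16 ± 0.29) and Zfp551 (1.17 ± 0.30), the protocadherin Pcdhb8 (1.20 ± 0.31), the potassium channel Kcnk12 (0.52 ± 0.14) and Pnma3 (0.94 ± 0.25) overlapped in each pair of groups compared. Kcnk12 and Pnma3 were measured at weak signal, with means of 2.19 and 2.80. Zinc finger and protocadherin genes belong to families of close copies, so their signals may be shared between relatives.

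On the other side, the 12 genes with the smallest p below 0 had both single-agent means above both the control and the combination mean. Mzf1, a zinc finger transcription factor, had the smallest p of all genes (0.000109) and an interaction of -0.92 ± 0.20. It was measured at weak signal: the lowest, median and highest values were 2.02, 2.38 and 2.47 in control, 2.33, 2.71 and 2.89 with BMS754807, 2.38, 2.93 and 3.26 with hydroxychloroquine, and 2.05, 2.33 and 2.63 in the combination. The ranges overlapped in each pair of groups compared.

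Cables1, an adaptor that binds cyclin-dependent kinases, had an interaction of -1.28 ± 0.28. Values ran from 4.44 to 5.37 in control (median 4.67), 5.28 to 6.33 with BMS754807 (median 5.48), 5.30 to 6.01 with hydroxychloroquine (median 5.63) and 4.78 to 5.57 in the combination (median 5.19). Each agent alone stood 0.81 (BMS754807) or 0.88 (hydroxychloroquine) above control, while the combination mean of 5.20 was 0.40 above the control mean of 4.80. Atf7ip2, a relative of a partner of the histone methyltransferase SETDB1, reached -1.11 ± 0.24. Its hydroxychloroquine values (4.64 to 5.27, median 4.95) lay above all 6 control values (3.95 to 4.46, median 4.36), while BMS754807 (4.11 to 5.40, median 4.71) and the combination (4.09 to 4.79, median 4.27) overlapped control.

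Gemin7, a subunit of the SMN complex that assembles spliceosomal ribonucleoproteins, had an interaction of -0.73 ± 0.18. All 6 combination tumours (7.73 to 8.59, median 8.09) lay below all 6 BMS754807 tumours (8.62 to 8.95, median 8.79). Control (8.18 to 8.69, median 8.48) and hydroxychloroquine (8.22 to 8.68, median 8.47) were level with each other, and BMS754807 stood 0.35 above control while the combination stood 0.38 below hydroxychloroquine. Akirin1, a nuclear protein, reached -0.79 ± 0.22, with 5 of 6 combination values between 9.76 and 10.04 and the sixth at 10.47. The hyaluronidase Hyal5 (-1.48 ± 0.34), Gprin1 (-1.05 ± 0.24), Fads6 of the fatty acid desaturase family (-1.08 ± 0.27), Tcstv1 (-1.29 ± 0.34) and the postsynaptic scaffold Dlgap1 (-1.04 ± 0.28) were the other genes beyond 1 log2 unit. Of these, Hyal5, Gprin1 and Dlgap1 were at weak signal, with means of 3.24, 3.14 and 3.06. The mean of Tcstv1 was 3.74. Evc, a component of the primary cilium in hedgehog signalling (-0.96 ± 0.24), and Dffb, the nuclease that cuts DNA in apoptosis (-0.90 ± 0.24), completed the 12. The next genes in order of p were Stpg1 (0.91 ± 0.25), Tas2r139 and Bco1 above 0, and Snai3, Map6d1 and Nell2 below.

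**Figure D2:**
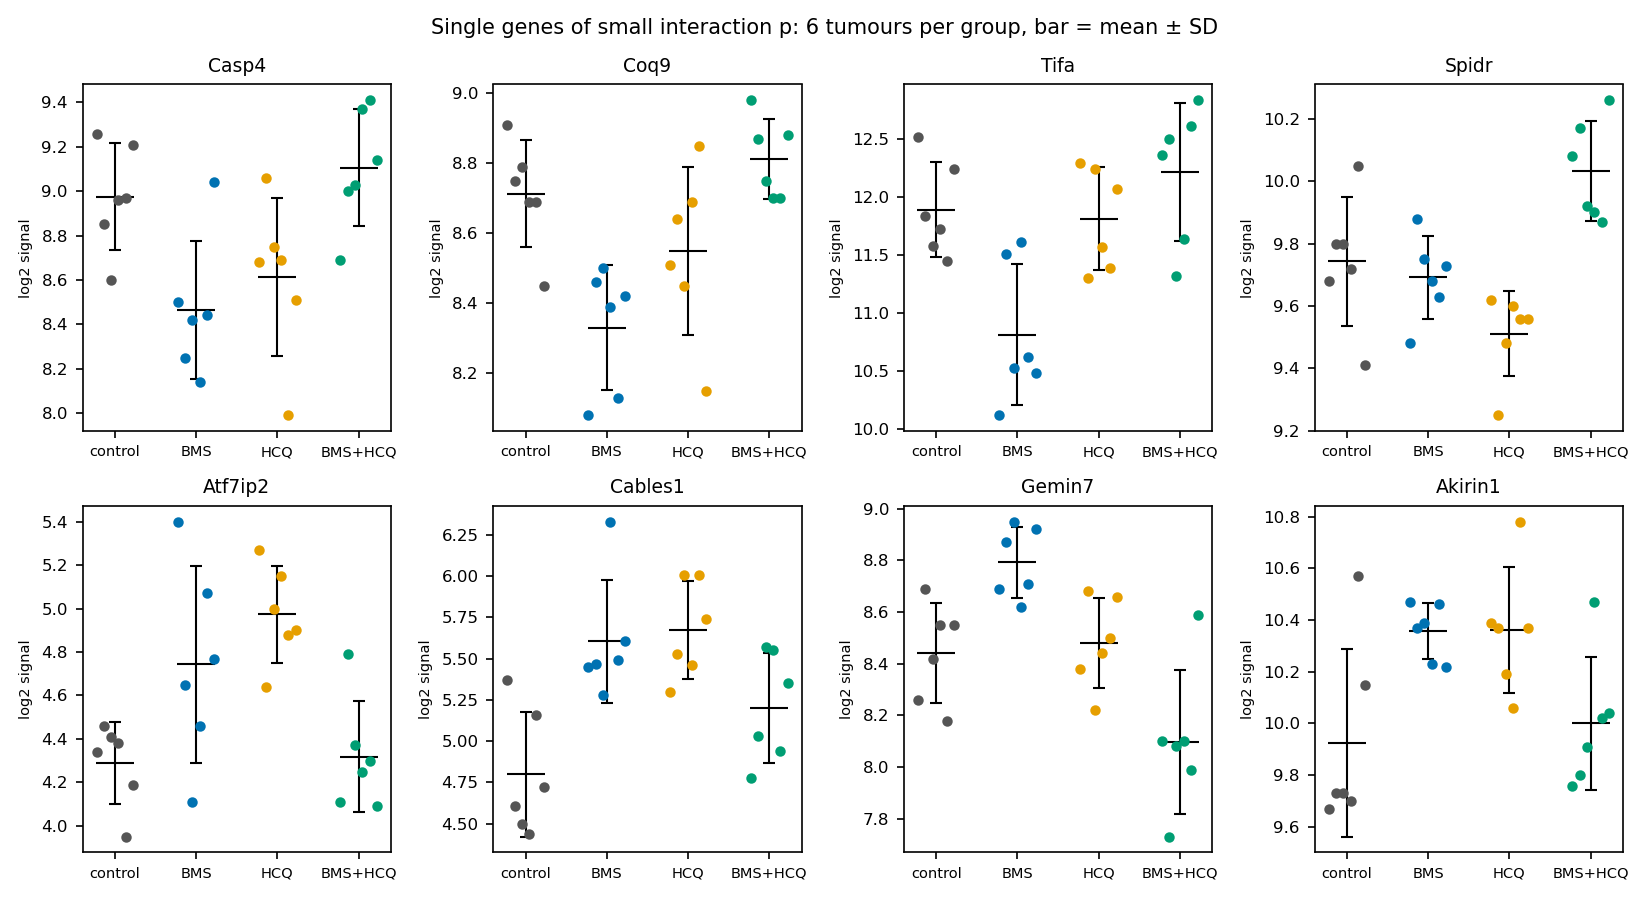
Log2 signal in every tumour for 8 of the genes with the smallest p, with 6 points per group and the mean ± SD as bars. In the upper row (Casp4, Coq9, Tifa, Spidr) the combination is highest or level with control, and in the lower row (Atf7ip2, Cables1, Gemin7, Akirin1) at least 1 single agent lies above control while the combination does not lie above it by as much. No gene shown passed the adjusted threshold.

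For the receptors that BMS754807 inhibits, the interactions were small beside their errors. Igf1r had 0.13 ± 0.23 (95% interval -0.35 to 0.61) and the insulin receptor Insr 0.05 ± 0.17 (-0.31 to 0.41). Group medians of Igf1r were 11.70 in control, 11.65 with BMS754807, 11.56 with hydroxychloroquine and 11.66 in the combination, with full overlap. The substrate Irs1 had -0.33 ± 0.18 (-0.69 to 0.04). Its 6 BMS754807 values (10.96 to 11.31, median 11.12) lay above all 6 control values (10.50 to 10.94, median 10.78), while hydroxychloroquine (10.62 to 11.31, median 10.96) and the combination (10.81 to 11.24, median 11.04) overlapped each other. The substrate Irs2 had 0.12 ± 0.40 (-0.70 to 0.94), the widest interval of these 4 genes.

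Of 16 measured ligands, receptors and substrates of the insulin and IGF pathway, 6 had an interaction above 0 and 10 below, with a median of -0.06, and 0 had an unadjusted p under 0.05. The adaptor Grb10, which dampens signalling by both receptors (-1.31 ± 0.68), and the ligand Igf1 (-1.21 ± 0.67) had the largest sizes and the largest errors. The 17 PI3K, AKT and mTOR genes had a median of -0.06, with 5 above 0, and the 10 IGF-binding proteins and their proteases a median of 0. For these lists, too, 0 genes had an unadjusted p under 0.05.

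FOXO factors and their targets, which are derepressed when insulin signalling stops, lay above 0 in 15 of 20 genes, with a median of 0.13. The unadjusted p was under 0.05 for 2 above and 1 below, against 2.74% and 2.31% of all genes. The list median was 0.07 without hydroxychloroquine tumour 5, 0.22 without hydroxychloroquine tumour 3 and 0.06 with the skeletal muscle score as a covariate. The interaction of the list score, a mean over the same genes, had the other sign (-0.06 ± 0.17 SE). Bcl2l11 encodes the death-promoting protein BIM and had an interaction of 0.65 ± 0.26. Its values were 10.16 to 10.57 in control (median 10.30), 8.95 to 10.23 with BMS754807 (median 9.73), 10.15 to 10.94 with hydroxychloroquine (median 10.39) and up to 10.85 in the combination (median 10.46, mean 10.44 ± 0.35 SD). BMS754807 tumours were the low group, 0.65 below control by the mean, and the combination and hydroxychloroquine means were both 10.44. Cdkn1b, the cell cycle inhibitor p27, had 0.43 ± 0.20, with every combination value (14.71 to 15.14) above every BMS754807 value (14.21 to 14.57). The muscle ubiquitin ligase Trim63 had -2.39 ± 1.06. One muscle-rich tumour, hydroxychloroquine tumour 5, held its highest value of 9.69, and without it the interaction was -1.45. With the skeletal muscle score as a covariate it was -1.62.

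Autophagy genes, the machinery whose end product hydroxychloroquine traps, lay above 0 in 21 of 33 genes with a median of 0.14, and 2 of them had an unadjusted p under 0.05, both above 0 (background 2.74%). Atg10 encodes the enzyme that joins ATG12 to ATG5. It had 0.55 ± 0.20, with values of 9.14 to 9.99 in control (median 9.57), 9.05 to 9.59 with BMS754807 (median 9.21), 9.04 to 9.66 with hydroxychloroquine (median 9.23) and 9.24 to 9.92 in the combination (median 9.44). Both single-agent medians were lower than those of control and combination, and all groups overlapped. Atg13, a subunit of the initiating ULK complex, had 0.61 ± 0.28, and Atg7, the activating enzyme of both conjugation systems, 0.52 ± 0.30. Map1lc3b, whose protein coats autophagosomes, had 0.15 ± 0.17 (95% interval -0.19 to 0.50), and the cargo receptor Sqstm1 -0.04 ± 0.24 (-0.54 to 0.45). The median of the list stayed between 0.08 and 0.16 when any 1 tumour was left out. The median signal of the list was 10.60. Among the 9753 genes at or above the median signal, 350 had that p above 0, and the median interaction was 0.043.

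Lysosomal genes lay on both sides of 0. Of 25 enzymes, membrane proteins and TFEB family factors, 10 lay above 0, the median was -0.04 and 0 had an unadjusted p under 0.05. The peptidase Tpp1 had the smallest p (0.28 ± 0.15). Among 17 subunits of the V-ATPase, the proton pump that acidifies the lysosome, 7 lay above 0 and the median was -0.05. Atp6v0d2, an isoform known from osteoclasts and macrophages, had -1.17 ± 0.43. It ran from 7.13 to 8.71 with BMS754807 (median 8.21) and from 5.72 to 7.28 in the combination (median 6.57), against 7.15 to 8.40 in control (median 7.33) and 6.54 to 8.02 with hydroxychloroquine (median 7.07). The combination thus had the lowest median and BMS754807 the highest. Atp6v1b2, the widely expressed catalytic-sector subunit, had 0.34 ± 0.14 in the other direction.

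Lists of energy metabolism differed in sign: the medians of glycolysis and of fatty acid oxidation lay above 0, and that of the respiratory chain and ATP synthase (23 genes, 7 above 0) was -0.06. Glycolysis and hypoxia genes lay above 0 in 20 of 21, with a median of 0.25, although 0 had an unadjusted p under 0.05. The glucose-trapping kinase Hk2 (0.79 ± 0.39), the carbonic anhydrase Car9 (0.68 ± 0.36) and the lactate exporter Slc16a3 (0.50 ± 0.28) had the smallest p. Hk2 medians were 11.12 in control, 10.84 with BMS754807, 10.98 with hydroxychloroquine and 11.73 in the combination, within ranges that overlapped (10.24 to 12.31 over all tumours). The list median lay between 0.15 (without BMS754807 tumour 6) and 0.36 (without BMS754807 tumour 3). Fatty acid oxidation genes lay above 0 in 14 of 17, with a median of 0.14. Median signals of the glycolysis and fatty acid oxidation lists were 14.46 and 10.64. Genes at or above the median signal had a median interaction of 0.043. Acot1, a cytosolic acyl-CoA thioesterase, had 1.07 ± 0.34, with medians of 8.37 in control, 7.47 with BMS754807, 8.01 with hydroxychloroquine and 8.56 in the combination. Acot1 was lowest with BMS754807 alone (7.01 to 8.51), and its range there overlapped the combination (7.95 to 8.77).

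Fatty acid synthesis genes lay below 0 in 10 of 14, with a median of -0.14 that became 0.04 without hydroxychloroquine tumour 1. Cytosolic ribosomal proteins lay above 0 in 17 of 20, with a median of 0.06. Genes at or above the median signal had a median of 0.043, and quantile normalization brought the ribosomal median to 0.03. The 18 cholesterol genes had a median of -0.0025 and 18 ER chaperone genes 0.06 (0.03 after quantile normalization). For 20 ATF4 and amino acid stress genes it was -0.03 and for 16 NRF2 genes -0.05. In these lists the unadjusted p was under 0.05 for 1 of the 18 ER chaperone genes, 1 of the 20 ATF4 genes and 0 in the others, beside 2.74% above and 2.31% below 0 over all genes. The first was the lectin chaperone Canx (0.26 ± 0.12) and the other Cth, the last enzyme of cysteine synthesis by transsulfuration (-0.76 ± 0.26). Cth values with hydroxychloroquine (6.04 to 6.77, median 6.34) lay above all 6 control values (4.78 to 5.80, median 5.70). The combination (5.36 to 6.21, median 6.11) and BMS754807 (5.50 to 6.44, median 5.84) overlapped both.

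Cell cycle lists gave medians of 0.04 for 27 DNA replication and E2F target genes and -0.16 for 27 genes of G2 and mitosis. In the mitotic list 4 of 27 lay above 0 and 0 had an unadjusted p under 0.05, and the proliferation marker Mki67 had -0.10 ± 0.22 (95% interval -0.56 to 0.36). The mitotic median was -0.06 without control tumour 6 and -0.24 without control tumour 4. The mitotic median of the BMS754807 difference was 0.33 without and 0.15 with hydroxychloroquine. Among E2F targets the cyclins that start DNA replication had an unadjusted p under 0.05, 2 of 27 genes below 0 against 2.31% of all genes: Ccne1 (-0.69 ± 0.33) and Ccne2 (-0.46 ± 0.21). Ccne1 stood 0.84 above control with BMS754807 and 0.14 above hydroxychloroquine in the combination, and Ccne2 0.51 and 0.05. Of 22 MYC and ribosome biogenesis genes, 3 lay below 0 and 1 above at that level, beside 2.31% and 2.74% of all genes, among them the nucleolar protein Ccdc86 (-0.74 ± 0.27), whose 6 BMS754807 values lay above all control values. The median of that list was -0.02.

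Interferon-stimulated genes, which encode antiviral proteins, lay above 0 in 27 of 32, with a median of 0.26. At an unadjusted p under 0.05 were 3 of the 32, all above 0, against a background of 2.74% of genes. Oasl1, a regulator of the interferon response, had 1.02 ± 0.38. Its values were 5.87 to 6.80 in control (median 6.03), 5.02 to 6.58 with BMS754807 (median 6.03), 4.59 to 5.89 with hydroxychloroquine (median 4.96) and 5.37 to 6.60 in the combination (median 5.80). Hydroxychloroquine alone was the low group for Oasl1, overlapping each other group. The ADP-ribosyltransferase Parp14 (0.81 ± 0.35) and the exonuclease Isg20 (0.43 ± 0.20) followed. Over the list, the median difference of hydroxychloroquine was -0.48 without BMS754807 and -0.16 with it. BMS754807 tumour 6 had a list score of 1.10 while the other 5 of its group lay between -0.37 and 0.12, and without that tumour the list's median interaction was 0.42. It was 0.13 without BMS754807 tumour 2.

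Genes of MHC class I presentation lay above 0 in 14 of 16 with a median of 0.32, and 0 of 16 had an unadjusted p under 0.05. The median signal of this list was 10.49, and genes at or above the median signal had a median interaction of 0.043. The peptide loading factor Tapbp (0.32 ± 0.21), H2-T23 (0.31 ± 0.20) and the trimming peptidase Erap1 (0.32 ± 0.25) had the smallest p. MHC class II genes had a median of -0.14 over 11 genes and 34 chemokine ligands one of -0.04, with 0 genes under that p in either list.

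The SNAIL family of transcription factors, which repress epithelial genes, did not pass the adjusted threshold. All of Snai1, Snai2 and Snai3 had an interaction below 0 with an unadjusted p under 0.05, 3 of the 17 measured EMT factors and cadherins against a background of 2.31%. Snai1 had -1.07 ± 0.38, with values of 3.72 to 6.12 in control (median 4.42), 4.35 to 5.46 with BMS754807 (median 4.83), 4.81 to 5.50 with hydroxychloroquine (median 5.18) and 4.19 to 4.61 in the combination (median 4.28). Every combination value of Snai1 lay below every hydroxychloroquine value, and control spanned all groups.

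Snai3 had -1.11 ± 0.30, with medians of 3.67 in control, 4.22 with BMS754807, 4.36 with hydroxychloroquine and 3.87 in the combination, at signals of 3.24 to 4.89. Snai2 had -0.74 ± 0.32, and -0.50 without BMS754807 tumour 6, whose value of 10.16 stood above the 8.60 to 8.99 of the other 5. The list median was -0.13, with 6 of 17 above 0. Vim and the cadherin Cdh1, whose levels these factors are known to shape, had -0.06 and 0.01, and are named here after their values were seen.

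Epithelial and ductal markers had a median of 0.23 with 12 of 17 above 0, but the value depended on single tumours: it was -0.03 without BMS754807 tumour 6 and 0.56 without hydroxychloroquine tumour 3. The epithelial transcription factor Ehf had 0.67 ± 0.28. Wnt feedback and LGR receptor genes had a median of -0.25 over 18 genes, between -0.33 and -0.14 with any 1 tumour left out. The secreted Wnt inhibitor Wif1 (-1.72 ± 0.78) had the smallest p among them.

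Immediate-early genes, which are induced within the first wave of transcription after a stimulus, lay below 0 in 18 of 23, with a median of -0.21 that was -0.09 without combination tumour 1. Klf2, a transcription factor known for its role in endothelial and T cells, had -1.16 ± 0.35. Values were 6.62 to 7.72 in control (median 6.82), 6.86 to 8.34 with BMS754807 (median 7.46), 7.43 to 8.89 with hydroxychloroquine (median 7.61) and 6.79 to 7.63 in the combination (median 7.10). Without hydroxychloroquine tumour 1, which held the 8.89, it was -0.94. The nuclear receptor Nr4a1 had -0.53 ± 0.25. Of the other signalling lists, ERK feedback (15 genes, median 0.04), TGF-beta (19, -0.07), p53 targets (16, -0.06), the BCL2 family (16, 0.02), bypass receptor kinases (17, 0.005) and pancreatic cancer drivers (14, -0.01) had medians between -0.07 and 0.04. An unadjusted p under 0.05 was reached by 1 of the 17 receptor kinases, Met (0.50 ± 0.24), and 1 of the 16 p53 targets, Plk2 (0.84 ± 0.33). In the BCL2 family it was 1 of 16, Bcl2l11, and in the ERK feedback, TGF-beta and cancer driver lists 0. These genes lay above 0, where 2.74% of all genes reached that p.

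**Figure D3:**
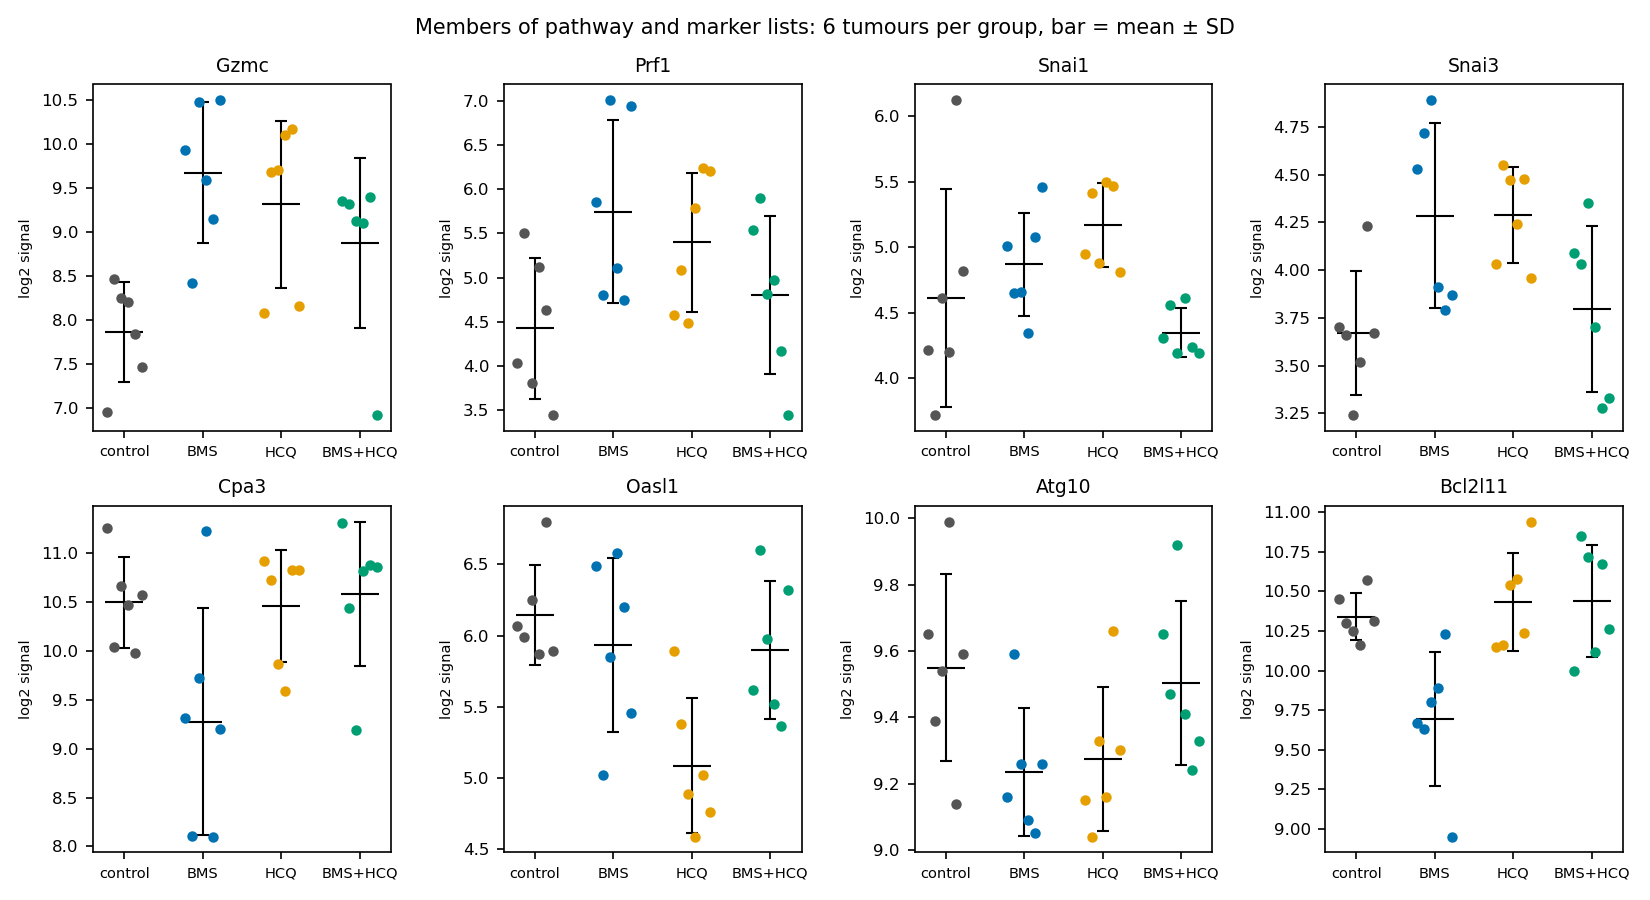
Log2 signal of 8 members of pathway and marker lists in every tumour, with 6 points per group and the mean ± SD as bars. Gzmc, Prf1, Snai1 and Snai3 lie highest with single agents by the group means, Cpa3 and Bcl2l11 lowest with BMS754807, Oasl1 lowest with hydroxychloroquine, and Atg10 lower with either agent than in control or the combination.

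Markers of immune and stromal cells had wide interactions. NK and cytotoxic lymphocyte genes had a median of -0.64, with 10 of 13 below 0, and 3 of 13 below 0 with an unadjusted p under 0.05 (background 2.31%). The granzyme Gzmc had -2.26 ± 0.64. It ran from 6.96 to 8.47 in control (median 8.03), 8.42 to 10.50 with BMS754807 (median 9.76), 8.08 to 10.17 with hydroxychloroquine (median 9.69) and 6.92 to 9.40 in the combination (median 9.22). BMS754807 alone stood 1.81 above control and hydroxychloroquine alone 1.45, while the combination mean was 0.45 below hydroxychloroquine. One combination tumour, number 6, lay at 6.92 with the other 5 at 9.11 to 9.40, and without it the interaction was -1.87.

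Prf1, the pore-forming protein that lets granzymes enter a target cell, had -1.92 ± 0.67. Its medians were 4.33 in control, 5.49 with BMS754807, 5.44 with hydroxychloroquine and 4.89 in the combination, with ranges of 3.44 to 5.51, 4.75 to 7.01, 4.48 to 6.24 and 3.44 to 5.90 that overlapped. Eomes, a transcription factor of cytotoxic cells, had -0.77 ± 0.34. The score over the NK list was -0.23 ± 0.29 (SD) in control, 0.22 ± 0.36 with BMS754807, 0.13 ± 0.29 with hydroxychloroquine and -0.13 ± 0.18 in the combination. T cell markers had a median of -0.16 over 14 genes and 0 under that p, and the median was 0.13 without hydroxychloroquine tumour 1.

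Mast cell markers went the other way: 9 of 10 lay above 0 with a median of 0.45, and 3 of 10 had an unadjusted p under 0.05 (background 2.74%). The carboxypeptidase Cpa3, stored in mast cell granules, had 1.34 ± 0.60. Its values were 9.98 to 11.26 in control (median 10.52), 8.10 to 11.22 with BMS754807 (median 9.26), 9.59 to 10.92 with hydroxychloroquine (median 10.78) and 9.19 to 11.31 in the combination (median 10.84). BMS754807 alone was the low group and also the most variable, with a highest tumour level with those of the other groups. The tryptases Tpsb2 (0.95 ± 0.45) and Tpsab1 (0.61 ± 0.30) followed, Tpsab1 at weak signal (2.46 to 4.10). The list median stayed between 0.32 and 0.53 with any 1 tumour left out.

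Vascular and matrix markers lay below 0. All 17 endothelial markers had an interaction below 0, with a median of -0.58, and 0 of 17 had an unadjusted p under 0.05. The endothelial score was -0.29 ± 0.21 (SD) in the combination, 0.07 ± 0.77 in control, 0.22 ± 0.78 with BMS754807 and -0.001 ± 0.54 with hydroxychloroquine, so the combination varied least. The list median was -0.26 without BMS754807 tumour 6, which had the highest endothelial score (1.49), and -0.87 without control tumour 5 (also 1.49). Of 19 fibroblast and matrix genes 16 lay below 0, with a median of -0.56 (-0.33 without BMS754807 tumour 6), and the small proteoglycan Lum had -1.56 ± 0.68. Combination tumour 2 held a Lum value of 9.50 against 11.59 to 12.36 in the other 5, and without it the interaction was -1.13. The medians of pericyte and smooth muscle genes (13, -0.19) and macrophage markers (14, -0.24) lay below 0 too. Without BMS754807 tumour 6 these medians were -0.06 and 0.05. Without control tumour 5 they were -0.40 and -0.45. Of the 14 macrophage markers 2 lay above 0. They include Cd14 (0.52), the 1 macrophage marker with an unadjusted p under 0.05, beside 2.74% of all genes.

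Single tumours also moved the skeletal muscle, B and plasma cell and adipocyte medians. Every one of 18 skeletal muscle genes had an interaction below 0, and the median of -1.58 was the lowest of the 50 lists, yet 0 of 18 had an unadjusted p under 0.05. The 5 muscle-rich tumours named above fall in all 4 groups. The median was -0.61 without hydroxychloroquine tumour 5 and -2.67 without combination tumour 1. B and plasma cell markers lay below 0 in 13 of 13 with a median of -0.77, which became 0.02 without hydroxychloroquine tumour 1. Adipocyte markers had a median of -0.63, which became 0.07 without BMS754807 tumour 6. Endothelial, fibroblast, NK and mast cell medians with the skeletal muscle score as a covariate were -0.36, -0.37, -0.58 and 0.39. The same covariate brought the macrophage median to -0.07, pericyte and smooth muscle to -0.08 and epithelial and ductal to 0.02. The skeletal muscle median itself became -0.04. That fall was fixed in advance, since the covariate is the mean of the same genes. Over all genes it left 0 past the adjusted threshold and 869 at an unadjusted p under 0.05, and the epithelial score as a covariate left 0 and 993. With the muscle covariate Neb, itself a member of that score, had an interaction of -0.71, and Tifa had 1.43. The part of B cell and adipose tissue in these values was not tested.

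**Figure D4:**
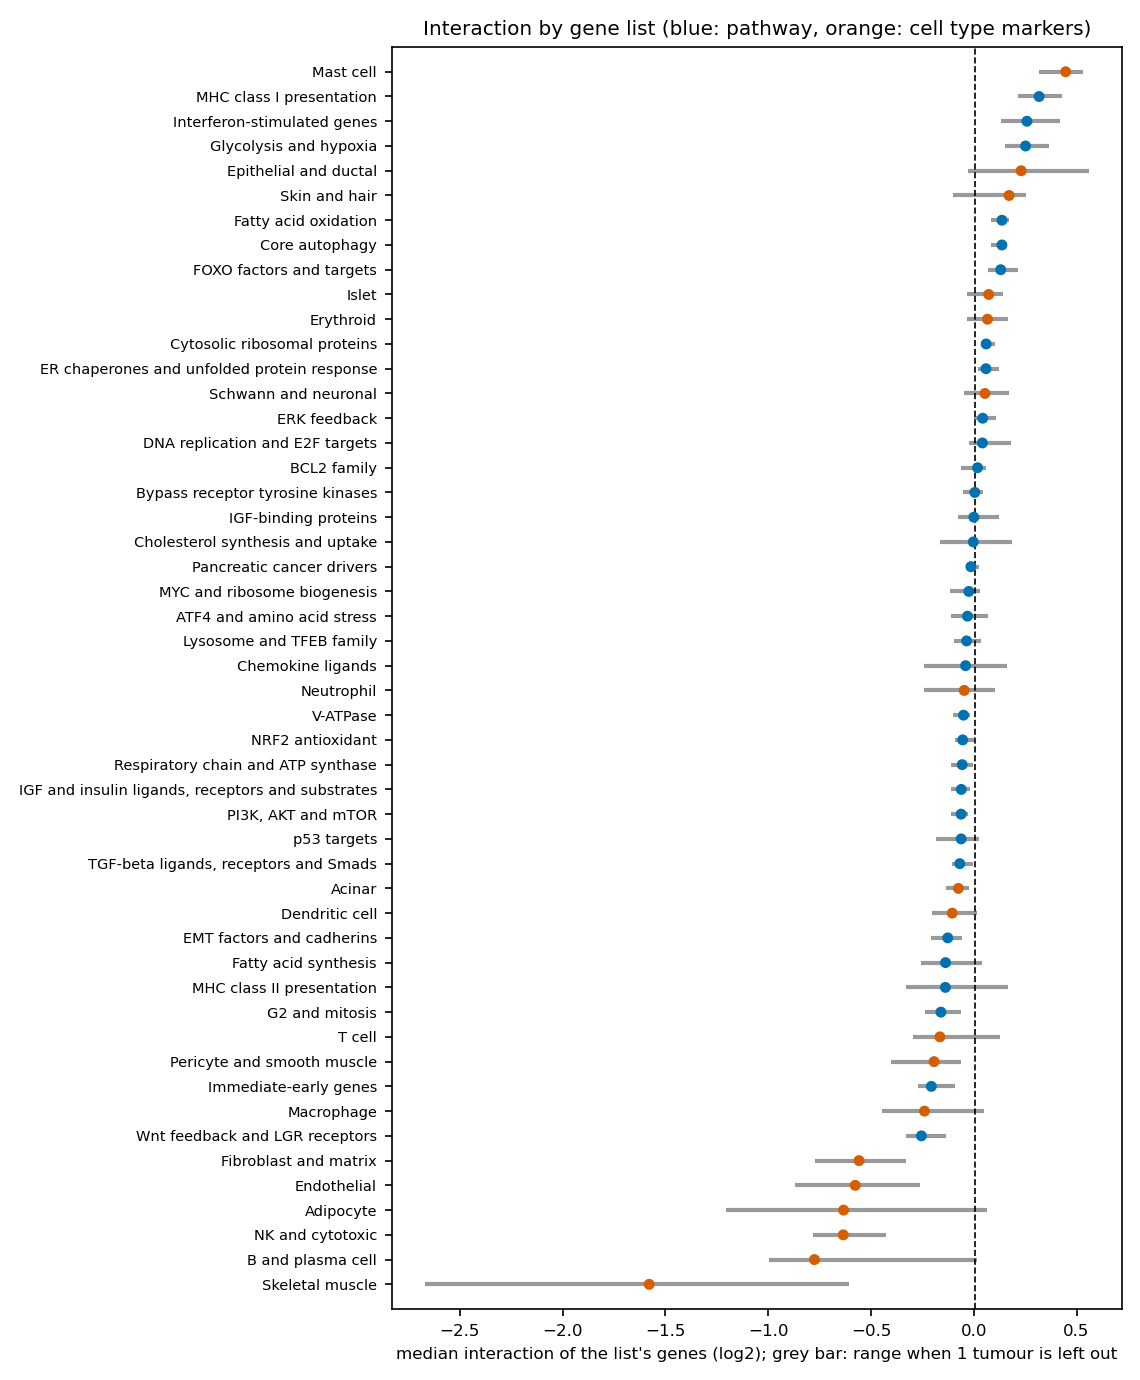
Median interaction of each of the 50 gene lists in log2 units, pathway lists in blue and cell type markers in orange, with grey bars from the lowest to the highest median when 1 tumour is left out. The dashed line is the median of all genes (0.0067). Genes at or above the median signal had a median of 0.043. Mast cell markers are highest (0.45) and skeletal muscle lowest (-1.58), and the bars of the adipocyte and the B and plasma cell lists reach 0.

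**Figure D5:**
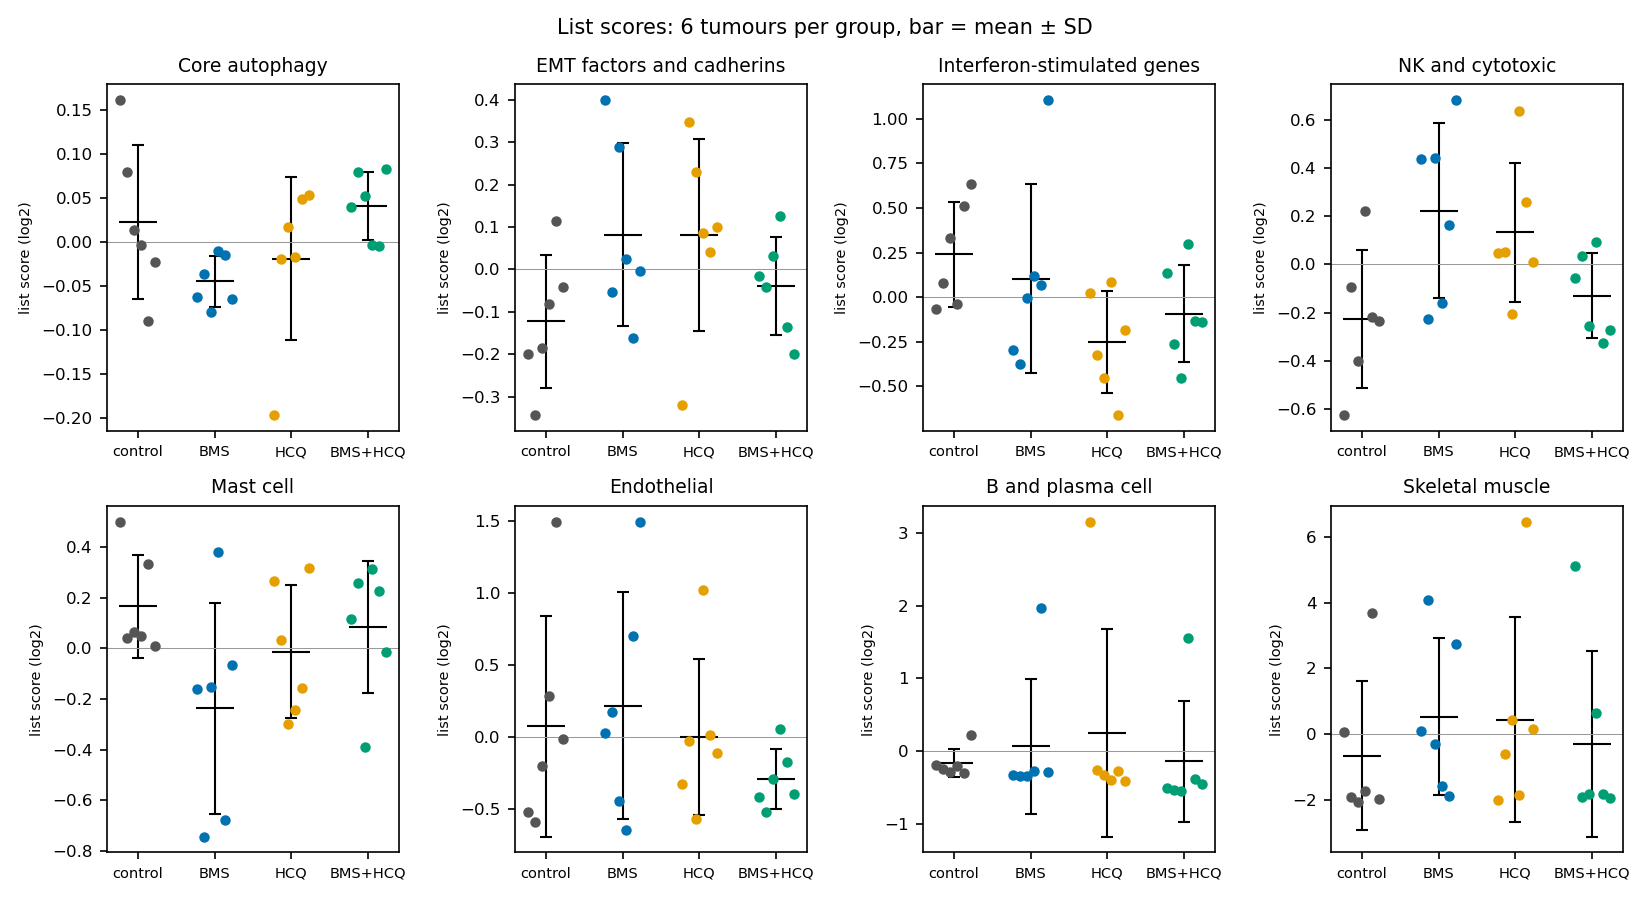
List scores in log2 units for 8 lists, with 6 tumours per group and the mean ± SD as bars. NK and EMT scores are highest by the mean with single agents, and the B and plasma cell and skeletal muscle panels show a few tumours far above the rest in more than 1 group.

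Over all 50 lists, 18 medians lay above 0, 31 below and 1 at 0, and 8 were more than 0.3 from 0. The signs of 24 medians were the same whichever tumour was left out, and 25 changed with at least 1 of the 24. Members of a list come from the same tumours, so counts of members on 1 side of 0 are not independent. Interactions of the list scores were -0.43 ± 0.51 (SE) for endothelial and 0.32 ± 0.22 for glycolysis and hypoxia. They were 0.27 ± 0.33 for MHC class I, 0.30 ± 0.29 for interferon-stimulated genes, -0.71 ± 0.23 for NK and 0.50 ± 0.24 for mast cells. Wnt feedback and LGR receptors had -0.31 ± 0.12, EMT factors and cadherins -0.32 ± 0.15 and core autophagy 0.13 ± 0.06. The remaining marker lists (acinar, islet, dendritic, neutrophil, erythroid, Schwann and neuronal, skin and hair) had medians between -0.10 and 0.17. An unadjusted p under 0.05 was reached there by 1 of 13 acinar genes, Cpb1 (-0.62 ± 0.26), and 1 of 12 islet genes, Pcsk1 (0.53 ± 0.23). It was reached by 0 of 13 dendritic, 13 neutrophil, 6 erythroid, 10 Schwann and neuronal and 13 skin and hair genes. Over all genes the shares were 2.31% below 0 and 2.74% above. Median signals of the acinar and islet lists were weak, 3.38 and 3.26, below the lower quartile of all genes (3.62).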

How the data were processed

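RNA of 24 tumours was measured on 24 Clariom S arrays, 4 groups of 6 taken from the sample titles. The values are log2 signals as deposited by the authors. The log base was inferred from their range (1.45 to 19.0, array medians 6.79 to 7.03). Transcriptome Analysis Console 4.0 is named in the submitters' processing notes. Background correction, normalization, summarization and genome build were not given in the sources used here. Of 22206 probe sets with 0 missing values, 19572 had 1 gene symbol, 0 several and 2634 none in the platform annotation. The probe set with the highest mean was kept per gene, which left 19505 genes.

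A linear model with 1 coefficient per group was fitted with limma 3.58.1 in R 4.3.3 (lmFit, eBayes, 20 residual degrees of freedom). The interaction was tested two-sided with Benjamini-Hochberg adjustment over all genes and a threshold of 0.05. The procedure was tested on simulated data. No test was made on lists.

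Genes were named by rule: the 12 genes of smallest p on either side of 0, leaving aside olfactory, vomeronasal, receptor segment and predicted genes, then Igf1r, Insr, Irs1, Irs2, Map1lc3b, Sqstm1 and Mki67, and up to 3 members of smallest p in each of 50 lists (32 of pathways, 18 of cell type markers, 843 measured genes). The comparison and the lists were chosen with earlier results of these data known. Alternatives were another choice of probe sets, a filter on low signal, quantile normalization, robust regression, array weights, a mean-variance trend, a replicate block, linear signal, muscle and epithelial covariates, and leaving out each tumour. The numbers in the titles were checked for pairing: residuals of 36 same-number pairs correlated at r = -0.25 to 0.30 (median -0.01), over 0.1 in 9, so the numbers were not taken to pair tumours.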

Additional observations from a re-analysis of the deposited data

Results flagged for a closer look

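In 20 of 260 groups of 6 values examined (51 genes and 14 list scores), 1 tumour stood apart from the other 5 by a gap above Dixon's 95% critical share of the group's range, which chance alone gives in about 1 of 20 groups. In control, these were tumour 2 for Pnma3 (3.69, others 2.69 to 2.99), Hk2 (11.99, others 11.08 to 11.37) and Cth (4.78, others 5.54 to 5.80), tumour 6 for B and plasma cell markers (a score of 0.218) and tumour 5 for skeletal muscle (3.70). With BMS754807, they were tumour 4 for Cables1 (6.33, others 5.28 to 5.61), tumour 6 for Snai2 (10.16) and interferon-stimulated genes (1.10), and tumour 5 for B and plasma cells (1.97).

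With hydroxychloroquine, tumour 1 stood apart for Klf2 (8.89, others 7.43 to 7.73), core autophagy (a score of -0.197, others -0.019 to 0.053), B and plasma cells (3.16) and adipocytes (2.12), tumour 4 for endothelial markers (1.02) and tumour 5 for skeletal muscle (6.47). In the combination, the values were Lum in tumour 2 (9.50), Gzmc in tumour 6 (6.92), Cth in tumour 3 (5.36, others 5.90 to 6.21), B and plasma cells in tumour 4 (1.56) and skeletal muscle in tumour 1 (5.11).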

How the results depend on the processing

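The count of genes past the adjusted threshold was 0 in limma's least squares fit and under each alternative run except robust regression. With robust regression, which lowers the weight of tumours far from their group, it was 43, with 1899 genes at an unadjusted p under 0.05 and a smallest adjusted p of 0.0122. The cause was not tested. Those 43 hold 10 of the 24 genes of smallest p (Defb6, Casp4, Morn4, Zfp551, Spidr, Mzf1, Atf7ip2, Gemin7, Fads6 and Akirin1) and, among list members, Gzmc and Klf2. Others are olfactory and vomeronasal receptor genes (Olfr1347, Olfr1424, Olfr985 and Vmn2r92) and predicted genes (Gm10334, Gm12695 and Gm9733). Both fits use the same arrays, so the overlap is no independent evidence. With the replicate block the count was 0 (948 at an unadjusted p under 0.05), and no named call changed. Leaving out 1 tumour gave 0 each time, with 834 to 1388 genes at an unadjusted p under 0.05 and a smallest adjusted p of 0.144 without BMS754807 tumour 6.

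All 24 genes of smallest p had the same sign in the 32 alternatives run for single genes, linear signal included. Reversals were seen for genes near 0: Sqstm1 was 0.00205 with the muscle covariate and Mki67 0.00327 with robust regression. With 1 tumour left out, Irs2 ran from -0.044 to 0.315, Sqstm1 from -0.188 to 0.0517, Insr from -0.0453 to 0.115, Mki67 from -0.187 to 0.0333 and Alas2 from -0.169 to 0.0477. The precision is limited by 6 arrays per group, and no depth exists for arrays.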
